A study of Mus musculus with 2 samples.

Results

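Low cycle radial glia are the cells that carried transcripts of radial glial transcription factors but few transcripts of DNA replication or mitosis genes. They were chosen by their own counts of unique molecular identifiers (UMIs, one per captured transcript). A cell had to hold at least 4 UMIs summed over *Sox2*, *Hes1*, *Hes5* and *Sox9*, at most 4 over the mitosis genes *Top2a*, *Mki67* and *Cenpf*, at most 4 over the replication genes *Mcm3*, *Mcm5*, *Mcm6*, *Pcna*, *Ung* and *Ccne2*, at most 1 each of *Eomes* and *Neurog2*, at most 2 over the neuronal genes *Neurod2* and *Neurod6*, and at most 1 over the GABAergic genes *Gad1*, *Gad2* and *Dlx6os1*. In all, 348 of 12936 cells that passed filters met this rule, 97 and 251 in the libraries numbered replicate 1 and replicate 3. They made up 1.78% (95% Wilson interval 1.46 to 2.17) and 3.35% (2.97 to 3.79) of the cells of each library, or 2.57% ± 1.11 (SD, n = 2 libraries). Among all cells with at least 4 UMIs of the radial glia sum, they were 10.4% of 933 and 14.0% of 1799.

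The series held 2 single-cell RNA libraries (10x Genomics 3' chemistry) of wild-type mouse embryos at embryonic day 14.5, titled EoMltt3, with no treatment and no other genotype. The study's protocol names the dorsal telencephalon, dissociated with papain, whereas the source label reads brain hemispheres. Whether each library came from 1 embryo was not stated, so the p-values below measure the spread between these 2 libraries only. The libraries held 64182006 and 93295807 UMIs in 6163 and 8870 barcodes, of which 5453 and 7483 were kept, and 23 barcode sequences occurred in both libraries, none of them in a low cycle cell. Low cycle cells held a median of 10056 and 10043 UMIs. With the same radial glia, *Eomes*, neuronal and GABAergic limits, 3 further groups were taken for comparison. S-high cells (132 and 347) had at least 5 UMIs of the replication sum and at most 4 of the mitosis sum, M-high cells (307 and 624) had at least 5 of the mitosis sum, both with at most 1 *Neurog2* UMI, and Neurog2-high cells (43 and 71) had at least 2 *Neurog2* UMIs with both cycle sums at most 4. Their median depths were 12481 and 12192, 16108 and 15676 and 10108 and 10194 UMIs, so the thresholds on raw UMIs met deeper cells in the S-high and M-high groups. Neurons with at least 10 UMIs of *Neurod2* and *Neurod6* and none of the radial glia sum (2010 and 2195) served as a background for free RNA. Where 2 values are joined by "and" below, the first is replicate 1 and the second replicate 3.

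Radial glia are the neural stem cells of the embryonic cortex. Their bodies line the ventricle, their nuclei move between the apical surface, where they divide, and the outer part of the ventricular zone, where they replicate DNA, and Notch signalling through *Hes1* and *Hes5* holds them undifferentiated while pulses of proneural factors such as *Neurog2* push daughters toward neurogenesis. Transcripts of the replication machinery build up around S phase under E2F factors, and those of the mitotic machinery build up in G2 and fall after division, so a cell low in both can be in G1, freshly divided, resting or differentiating. Counts alone do not separate these states.

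The genes of the rule are given as a description, since they chose the cells. The summed radial glia genes reached 840.1 and 726 CPM (the UMIs of a gene scaled to a common total of UMIs over the pooled cells) in low cycle cells, against 784 and 620.0 in S-high, 791 and 698 in M-high and 736 and 598 in Neurog2-high cells. *Top2a*, which untangles sister chromatids, stood at 15.99 and 13.3 CPM in low cycle cells, at or below the 22.3 and 25.2 CPM of the neurons. *Cenpf*, a kinetochore protein, stood at 82.8 and 51.9 CPM, above the 22.0 and 20.5 CPM of S-high cells and the 15.6 and 16.6 CPM of the neurons. *Pcna*, the sliding clamp of DNA polymerase, was at 60.2 and 48.2 CPM against 331 and 327 in S-high cells. Many members sat at a threshold. Of the 348 cells, 59 had exactly 4 UMIs of the radial glia sum, while 92 further cells missed the rule by holding 3. At the mitosis limit, 28 members held 4 UMIs and 22 cells just outside held 5, and at the replication limit these counts were 41 and 33. One *Neurog2* UMI was present in 66 members, and 45 cells were left out for having 2. The other limits touched fewer cells, with 17 members at 1 *Eomes* UMI and 13 cells outside at 2, 11 members at 2 UMIs of the neuronal sum and 3 outside at 3, and 8 members at 1 UMI of the GABAergic sum and 2 outside at 2. The median sum of the glial genes *Slc1a3* and *Fabp7* was 9 UMIs in the members with a radial glia sum of 4 and 8 in the cells just below, and 35 and 22 on the 2 sides of the mitosis limit.

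The label of radial glia held for most but not all members when checked with glial genes that the rule did not use. *Slc1a3* (ENSMUSG00000005360, chr15:8634124-8710807 on GRCm38.p6), the glutamate transporter GLAST, stood at 646 and 364 CPM in low cycle cells, 499 and 339 in S-high cells, 552 and 316 in M-high cells and 44.5 and 33.5 in neurons. *Fabp7* (ENSMUSG00000019874, chr10:57784923-57788450), a fatty acid binding protein of radial glia, stood at 4418 and 2116 CPM in low cycle cells and 4293 and 2990.1 in S-high cells, with 79.9 and 116 in neurons. Both genes were thus far above the background level in each library, and the low cycle values overlapped those of the cycling groups. The intermediate filament gene *Vim* was at 2059 and 1581 CPM against 1555 and 1422 in S-high cells. Summed over *Slc1a3* and *Fabp7*, at least 4 UMIs were present in 87.6% and 78.9% of low cycle cells, compared with 97.7% and 96.3% of S-high, 98.4% and 95.99% of M-high and 86.0% and 90.1% of Neurog2-high cells and 14.5% and 18.0% of neurons. After each cell was thinned to 3000 UMIs, *Fabp7* was found in 84.5% and 71.6% of low cycle cells, 96.2% and 91.9% of S-high cells and 19.9% and 27.7% of neurons, while in the same order the shares before thinning were 90.7% and 81.7%, 99.2% and 96.8% and 51.4% and 64.7%. Low cycle cells with markers of other classes, described next, reached 4 UMIs of *Slc1a3* and *Fabp7* less often than the rest. The unmarked low cycle cells still lay below the unmarked S-high cells in both libraries.

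Low cycle cells were mixed in their markers. A total of 116 of the 348 cells, 22.7% of replicate 1 and 37.5% of replicate 3, held at least 3 UMIs of 1 of 8 marker lists for cells other than cortical radial glia, compared with 7.58% and 10.4% of S-high, 7.82% and 11.4% of M-high and 9.30% and 7.04% of Neurog2-high cells. The same mark was found on 34.2% and 37.1% of the neurons, where it came mostly from the hem list, which marked 31.1% and 30.9% of them, with 4.53% and 6.51% for Cajal-Retzius and 0.0498% and 2.37% for choroid plexus markers. A mark by the hem or Cajal-Retzius list thus does not by itself set a cell apart from neurons. The most frequent were genes of the cortical hem, the signalling centre at the medial edge of the cortex, which marked 7.22% and 26.7% of low cycle cells, and choroid plexus genes, which marked 5.15% and 16.3%. Markers of Cajal-Retzius cells, the early reelin-producing neurons of the surface, were found in 5.15% and 6.37%, of meningeal fibroblasts in 8.25% and 7.97%, of pericytes in 6.19% and 4.78% and of endothelium in 6.19% and 3.59%. Oligodendrocyte lineage genes marked 3.09% and 1.59%, and all 7 of these cells were also marked by the pericyte list. No low cycle cell carried 3 UMIs of microglia markers, which allows a share of up to 3.09% and 1.195%. *Aif1*, *C1qb* and *C1qc* of the microglia list and *Olig1* and *Sox10* of the oligodendrocyte list had no UMI in any low cycle cell. Summed over the pooled cells, the hem genes reached 373 and 964 CPM in low cycle cells against 31.9 and 87.8 in S-high cells, and the choroid plexus markers, most of them *Ttr*, reached 834 and 18993 CPM against 2.32 and 3877. The lists overlapped within cells. Together, 68 cells carried 2 or more of them, 34 held both hem and choroid plexus genes and 17 both hem and Cajal-Retzius genes. Of the hem list, *Rspo3* is also a neuronal transcript here, at 173 and 164 CPM in the neurons. Of the marked cells, 54.5% and 58.5% had at least 4 UMIs of *Slc1a3* and *Fabp7*, and of the 232 unmarked cells 97.3% and 91.1% did. The tests were therefore repeated without the marked cells of every group, a repeat chosen after the data were seen. Projection neuron, interneuron and erythroid lists were not among the 8, so unmarked cells can hold their transcripts. At 3 UMIs, projection neuron markers were found in 81.4% and 72.1% of low cycle and 85.6% and 86.2% of S-high cells. In the same order, erythroid markers gave 17.5% and 82.5% and 19.7% and 85.3%, and interneuron markers 6.19% and 3.19% and 6.06% and 4.03%.

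**Figure D1:**
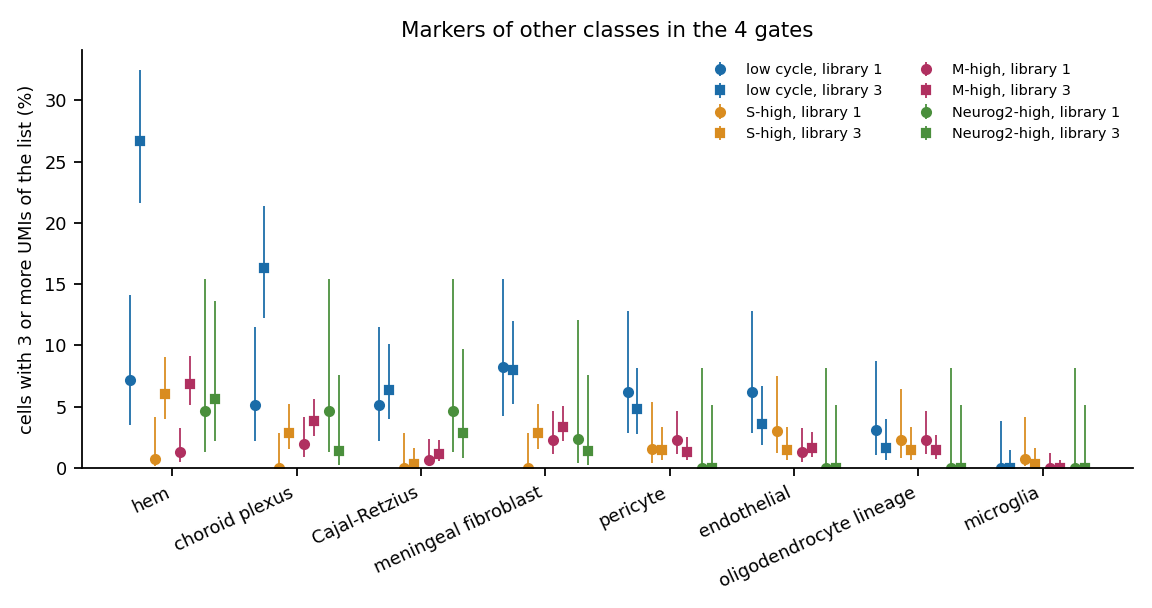
Share of cells with at least 3 UMIs of each marker list (percent, y axis) in low cycle, S-high, M-high and Neurog2-high radial glia, with 1 point per library and bars of the 95% Wilson interval. Hem genes marked 7.22% and 26.7% of low cycle cells and 0.758% and 6.05% of S-high cells.

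The remaining cell cycle genes follow the genes of the rule and are given without a test. A list of 38 further S phase genes summed to 1373 and 1328 CPM in low cycle cells, close to the 1114 and 1162 CPM of Neurog2-high cells, and to 4706 and 4693 in S-high and 4439 and 4449 in M-high cells, with 698 and 712 in neurons. A list of 49 further G2 and mitosis genes did not fall in the same way. It summed to 2871 and 2565 CPM in low cycle cells against 2651 and 2738 in S-high cells, 13384 and 13149.7 in M-high cells and 1264 and 1356 in neurons. The cells were uneven. Per 10000 UMIs, the median low cycle cell held 17.9 and 17.0 UMIs of these genes, below the 24.4 and 24.8 of S-high cells, but the 95th percentile was 90.1 and 100.7 against 48.1 and 48.7. In all, 20 and 35 low cycle cells, 20.6% and 13.9%, lay above the 95th percentile of S-high cells, a cut set after the values were seen, as did 90.9% and 90.9% of M-high and 14.0% and 12.7% of Neurog2-high cells. Markers of other classes were present in 0 and 2 of these low cycle cells. Their median depth was 8919 and 8471 UMIs, against 10566 and 10380 in the other low cycle cells.

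**Figure D2:**
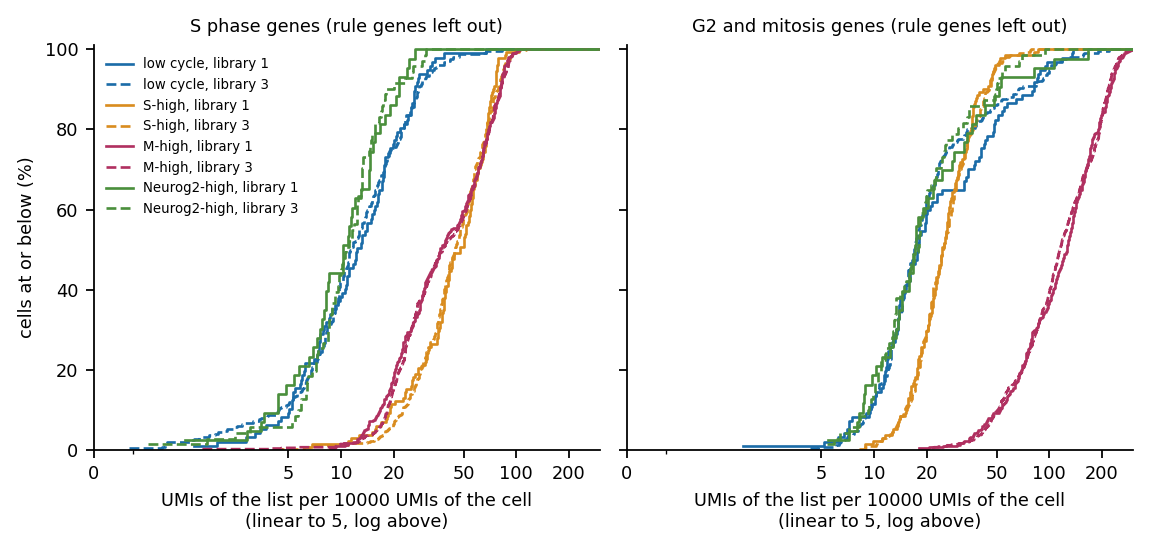
Cumulative share of cells (percent, y axis) by the UMIs of the S phase list (left) or the G2 and mitosis list (right) per 10000 UMIs of the cell (x axis, linear to 5 and log above), with 1 line per group and library. The low cycle lines lie left of S-high cells in the S phase panel and cross them in the other, where the G2 and mitosis list of low cycle cells reaches 90.1 and 100.7 at the 95th percentile against 48.1 and 48.7 in S-high cells.

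In the cells above this cut, which the G2 and mitosis list itself chose, some of its genes stood near or above their level in M-high cells and others did not. *Cenpa*, the histone variant that marks centromeres, stood at 377 and 655 CPM in the low cycle cells above the cut, 38.9 and 29.4 in the other low cycle cells and 298 and 320.3 in M-high cells above the same cut. *Cdc20*, an activator of the anaphase-promoting complex, was at 207 and 317 CPM, 9.14 and 6.38 CPM and 246 and 259 CPM in the same order. *Ccnb2*, a mitotic cyclin, was at 234 and 272, 20.6 and 15.7 and 153 and 151 CPM. *Hmmr*, a spindle gene of the list, was lower at 37.2 and 59.2 CPM against 199 and 184 CPM in the M-high cells above the cut. *Cenpf*, which was capped by the rule, stood at 149 and 205 CPM against 778 and 753 CPM in the M-high cells. Over all low cycle cells, *Cenpa* was at 98.8 and 97.4 CPM, with 15.7 and 17.7 CPM in S-high, 277 and 295 in M-high, 100.2 and 76.5 in Neurog2-high cells and 9.13 and 11.1 in neurons.

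The proximal promoters of these cycle genes carry short elements known from cell cycle control. The promoters of 3 genes of each list with the element are shown, chosen after their values were seen, because the 2 lists behaved differently. For the G2 and mitosis list they are the genes with the largest increase over S-high cells. For the S phase list they are the genes with the largest decrease. The letters TTTGAA are the cell cycle homology element and GCGGGAA is an E2F element, both searched on both strands (as TTCAAA and TTCCCGC on the other) in the 250 bases before RefSeq starts on GRCm38.p6. The letters differ, so a match of one element is never a match of the other, and each promoter printed holds 1 match of the element marked. TTTGAA was present in 39.6% of 48 promoters of the G2 and mitosis list, 19.4% of 31 promoters of the S phase list and 15.99% of all 32851 promoters, and GCGGGAA in 2.08%, 41.9% and 3.82%. Promoters were found for 43 of 49 and 27 of 38 genes of the lists. A match is a run of letters and not a shown binding site. The capitals mark the match, and each sequence runs 5′ to 3′ on the strand of the gene up to the base before the start. The promoters are those of *Cdc20* (chr4:118437344-118437593, minus strand), *Ccnb2* (chr9:70421555-70421804, minus strand), the ubiquitin-conjugating enzyme gene *Ube2c* (chr2:164769679-164769928, plus strand), the replication licensing gene *Cdc6* (chr11:98907901-98908150, plus strand), *Uhrf1* (chr17:56303087-56303336, plus strand), whose protein recruits DNA methyltransferase to newly made DNA, and the chromatin assembly gene *Chaf1b* (chr16:93883651-93883900, plus strand). The match lay 18, 167 and 29 bases before the start in *Cdc20*, *Ccnb2* and *Ube2c*, and 138, 48 and 227 bases before it in *Cdc6*, *Uhrf1* and *Chaf1b*.
Cdc20: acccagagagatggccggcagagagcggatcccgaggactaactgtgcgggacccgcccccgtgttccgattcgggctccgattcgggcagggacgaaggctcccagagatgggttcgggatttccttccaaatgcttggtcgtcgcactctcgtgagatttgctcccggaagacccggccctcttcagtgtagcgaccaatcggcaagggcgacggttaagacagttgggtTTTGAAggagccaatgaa
Ccnb2: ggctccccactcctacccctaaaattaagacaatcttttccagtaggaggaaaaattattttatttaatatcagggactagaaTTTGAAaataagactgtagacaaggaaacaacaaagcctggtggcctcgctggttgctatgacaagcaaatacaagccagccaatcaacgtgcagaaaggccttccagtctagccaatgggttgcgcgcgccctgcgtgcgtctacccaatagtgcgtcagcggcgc
Ube2c: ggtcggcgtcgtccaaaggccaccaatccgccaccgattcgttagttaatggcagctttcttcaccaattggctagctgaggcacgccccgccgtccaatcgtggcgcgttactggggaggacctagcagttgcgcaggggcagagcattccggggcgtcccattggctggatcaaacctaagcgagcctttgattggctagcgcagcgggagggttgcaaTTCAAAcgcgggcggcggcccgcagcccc
Cdc6: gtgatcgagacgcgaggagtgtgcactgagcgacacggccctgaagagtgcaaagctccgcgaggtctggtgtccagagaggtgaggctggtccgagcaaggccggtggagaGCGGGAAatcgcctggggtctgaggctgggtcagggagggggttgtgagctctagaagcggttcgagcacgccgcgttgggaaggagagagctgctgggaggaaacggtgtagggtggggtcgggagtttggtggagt
Uhrf1: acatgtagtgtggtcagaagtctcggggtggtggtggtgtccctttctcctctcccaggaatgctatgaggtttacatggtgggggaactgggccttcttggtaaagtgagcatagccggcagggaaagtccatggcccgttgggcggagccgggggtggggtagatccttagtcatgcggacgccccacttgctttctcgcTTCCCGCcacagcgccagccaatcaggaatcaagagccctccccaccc
Chaf1b: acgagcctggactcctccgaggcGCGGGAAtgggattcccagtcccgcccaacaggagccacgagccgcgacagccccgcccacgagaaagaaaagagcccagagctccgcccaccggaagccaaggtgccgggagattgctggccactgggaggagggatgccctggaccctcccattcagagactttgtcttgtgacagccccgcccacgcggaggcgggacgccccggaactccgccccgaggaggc

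*Cdc20* stood at 44.2 and 40.2 CPM in low cycle cells and 8.70 and 9.09 CPM in S-high cells. *Ccnb2* stood at 58.3 and 43.6 CPM in low cycle cells and 8.70 and 13.6 CPM in S-high cells, and *Ube2c* at 56.4 and 69.0 CPM in low cycle cells and 24.9 and 28.4 CPM in S-high cells. The order was the opposite for the 3 genes shown with an E2F element, a direction fixed by how the genes were chosen. Over the whole lists, log2 fold changes ran from -1.68 to 2.44 for G2 and mitosis genes and from -4.22 to -0.916 for S phase genes. *Cdc6* was at 1.88 and 1.90 CPM in low cycle and 34.8 and 38.2 CPM in S-high cells, *Chaf1b* was at 8.47 and 14.8 CPM in low cycle and 77.7 and 79.1 CPM in S-high cells, and *Uhrf1* was at 12.2 and 9.10 CPM in low cycle and 127 and 106 CPM in S-high cells.

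The first comparison asked how low cycle cells differ from S-high cells beyond the genes of the rule. Low cycle cells carried more transcripts of the cell cycle exit and neurogenesis genes *Gadd45g*, *Btg2* and *Hes6*, and less of replication and chromatin assembly genes, and these differences stayed when the cells with other markers were left out. They also held more transcripts of hem and Cajal-Retzius genes, which then fell below the count filter or no longer passed. Of 12164 genes tested with edgeR's quasi-likelihood test on UMIs summed per group and library, 218 were higher (1.79%) and 380 lower (3.12%) at an adjusted p under 0.05, all in the same direction in both libraries. With the library as a block, since the sums of 1 library share its preparation, 804 were higher (6.61%) and 885 lower (7.28%). Without the marked cells, 90 of 10609 were higher (0.848%) and 318 lower (3%), and these held 24.8% of the genes called higher and 70.5% of those called lower before. Cells were sorted into groups by counts from the same libraries, so genes that travel with the rule's genes had to differ.

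*Gadd45g* (ENSMUSG00000021453, chr13:51846675-51848475), a stress and growth arrest gene switched on in newly committed progenitors, stood at 41.4 and 93.3 CPM in low cycle and 4.64 and 13.2 CPM in S-high cells (log2 fold change 2.68 ± 0.48 SE, adjusted p = 0.0177). Every low cycle value exceeded every S-high value, and the log2 fold change was 2.67 (adjusted p = 0.00162) without the marked cells. After thinning to 3000 UMIs, *Gadd45g* was found in 12.4% and 18.0% of low cycle and 1.52% and 2.31% of S-high cells, with 6.27% and 10.3% of neurons, which transcribe it too, and in the same order the shares before thinning were 22.7% and 34.7%, 4.55% and 10.1% and 19.3% and 28.2%. *Btg2*, an antiproliferative gene that marks neurogenic divisions, was at 75.3 and 73.6 against 30.2 and 26.6 CPM (log2 fold change 1.33 ± 0.14 SE, adjusted p = 0.00116). *Hes6*, which opposes *Hes1*, was at 86.5 and 85.3 against 38.9 and 43.9 CPM (log2 fold change 0.98 ± 0.23 SE, adjusted p = 0.0499). For these 3 genes the groups did not overlap in the 2 libraries. In the list of proneural and differentiation genes, 7 of 15 were higher and 0 lower, against 1.79% and 3.12% of all genes, with a median log2 fold change of 0.92 against 0.03 over all genes. Without the marked cells, 5 of 14 were higher. *Dcx* and *Tubb3*, genes of the neuronal cytoskeleton, were among the genes that no longer passed, with log2 fold changes of 0.97 and 1.02 before and 0.11 and 0.09 (adjusted p = 0.915 and 0.915) after.

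The 5 genes with the largest increase over S-high cells were *Reln*, *Zfp804b*, *Cacna2d3*, *Rspo2* and *Rspo3*. *Reln*, which encodes the secreted protein reelin of Cajal-Retzius cells, stood at 373 and 813 CPM against 0.580 and 3.18 CPM (log2 fold change 7.59 ± 0.90 SE, adjusted p = 0.00260), and its UMIs came from 7 of 97 and 29 of 251 cells. Once the marked cells were left out, it was at 3.97 and 3.51 CPM and fell below the count filter. *Rspo2*, a secreted activator of Wnt signalling made in the hem, stood at 117 and 335 CPM against 7.54 and 24.6 CPM (log2 fold change 3.58 ± 0.81 SE, adjusted p = 0.0438). Its relative *Rspo3* stood at 183 and 364 CPM against 11.6 and 36.2 CPM (log2 fold change 3.31 ± 0.46 SE, adjusted p = 0.00543). For all 5 genes both low cycle values lay above both S-high values. *Cacna2d3*, an auxiliary subunit of calcium channels, was at 149 and 334 CPM against 4.06 and 27.3 (log2 fold change 3.64 ± 0.60 SE, adjusted p = 0.0118), and without the marked cells its log2 fold change was 1.37 (adjusted p = 0.390). *Zfp804b*, a zinc finger gene, was at 273 and 424 against 1.74 and 23.9 CPM (log2 fold change 4.37 ± 0.67 SE, adjusted p = 0.00868). The medial list, which holds the hem genes with *Zic1* and *Wnt5a*, had 6 of 14 genes higher and 0 lower, against 1.79% and 3.12% of all genes, and without the marked cells 0 of 8 were higher. That repeat removed cells by some of these same genes, so this count was fixed in part by the removal. Of the Cajal-Retzius markers, 3 of 5 were higher, all 5 with the library block, and none was tested without the marked cells. *Lhx1*, *Lhx5* and *Trp73* of that list held 48, 41 and 73 UMIs in low cycle and 0, 2 and 3 UMIs in S-high cells. These genes could pass the count filter only through groups other than S-high cells, so the Cajal-Retzius counts are a description.

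Without the marked cells, the genes with the largest increase were *Sfta3-ps*, *Erbb4*, *Gadd45g*, *Cntn6* and *Mapk10*, ranked after their values were seen. *Erbb4* (ENSMUSG00000062209, chr1:68031884-69108576), a receptor of neuregulins, stood at 140.2 and 288 CPM in all low cycle cells against 58.0 and 47.5 CPM in S-high cells (log2 fold change 2.01 ± 0.34 SE, adjusted p = 0.0127), and at 122 and 49.8 against 9.19 and 6.35 CPM without the marked cells (log2 fold change 3.32 ± 0.43 SE, adjusted p = 0.000809). It was carried by 12 of 97 and 62 of 251 cells, and 1 cell gave 47.0% of its UMIs in replicate 1 and 7.89% in replicate 3. *Sfta3-ps*, a transcribed neighbour of the ventral transcription factor gene *Nkx2-1*, was at 17.2 and 80.0 against 0 and 2.91 CPM (log2 fold change 4.25 ± 0.83 SE, adjusted p = 0.0164) from only 3 and 9 low cycle cells. Over all cells its adjusted p was 0.0663. *Mapk10*, the neuronal JNK kinase gene, was at 33.1 and 46.3 against 6.56 and 6.35 CPM (log2 fold change 2.49 ± 0.48 SE, adjusted p = 0.0117), and *Cntn6*, a neuronal adhesion gene, at 22.5 and 52.6 against 11.2 and 3.44 CPM (log2 fold change 2.51 ± 0.61 SE, adjusted p = 0.0413). The ventral list as a whole had 3 of 4 genes higher in this repeat, against 0.848% of all genes. Over all cells 1 of 7 was higher, against 1.79% of all genes. A gene can pass the count filter through the low cycle cells alone, so these ventral counts are a description.

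The 5 largest decreases were all genes of DNA replication, repair or chromosome structure outside the fixed cycle lists. The thymidine kinase gene *Tk1* was at 1.88 and 4.55 CPM against 41.8 and 47.7 CPM in S-high cells (log2 fold change -3.45), the repair gene *Brca1* at 4.70 and 7.204 against 77.7 and 74.1 (-3.49), and the chromatin assembly gene *Chaf1a* at 1.88 and 7.96 against 61.5 and 73.2 (-3.43). *Kntc1* of the kinetochore changed by -3.42, and *Pclaf*, a partner of *Pcna*, by -3.24. The rule capped replication genes, so these values are a description. Among regulators of the G1 phase, 3 of 22 were lower and 0 higher, against 3.12% and 1.79% of all genes, among them *E2f1*, which drives replication genes, at 11.3 and 6.83 against 44.1 and 51.8 CPM (log2 fold change -2.49 ± 0.27 SE, adjusted p = 0.00179). After removal of the marked cells 5 of 20 were lower and 1 higher. A regulator that goes with the capped replication genes had to differ, so these calls are no separate support. Of 16 radial glia identity genes outside the rule, 1 was lower, the glycolysis gene *Aldoc* (log2 fold change -0.62 ± 0.12 SE, adjusted p = 0.0240), and 7 were lower with the library block. Their median log2 fold change was -0.24 over all cells and 0.00150 without the marked cells, where 1 was lower, and with the block added 2 were lower and 1 higher. The list of immediate early and dissociation stress genes held 5 higher genes of 16, against 1.79% of all genes. Among them were *Fos* at 96.9 and 129.7 against 38.3 and 35.9 CPM (log2 fold change 1.57 ± 0.24 SE, adjusted p = 0.00787) and *Fosb* at 27.3 and 23.1 against 3.48 and 2.73 CPM (log2 fold change 2.77 ± 0.37 SE, adjusted p = 0.00478). Without the marked cells 1 of 11 was higher, against 0.848% of all genes, and *Fos* gave 0.67 (adjusted p = 0.361). The part of dissociation in these values was not tested.

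**Figure D3:**
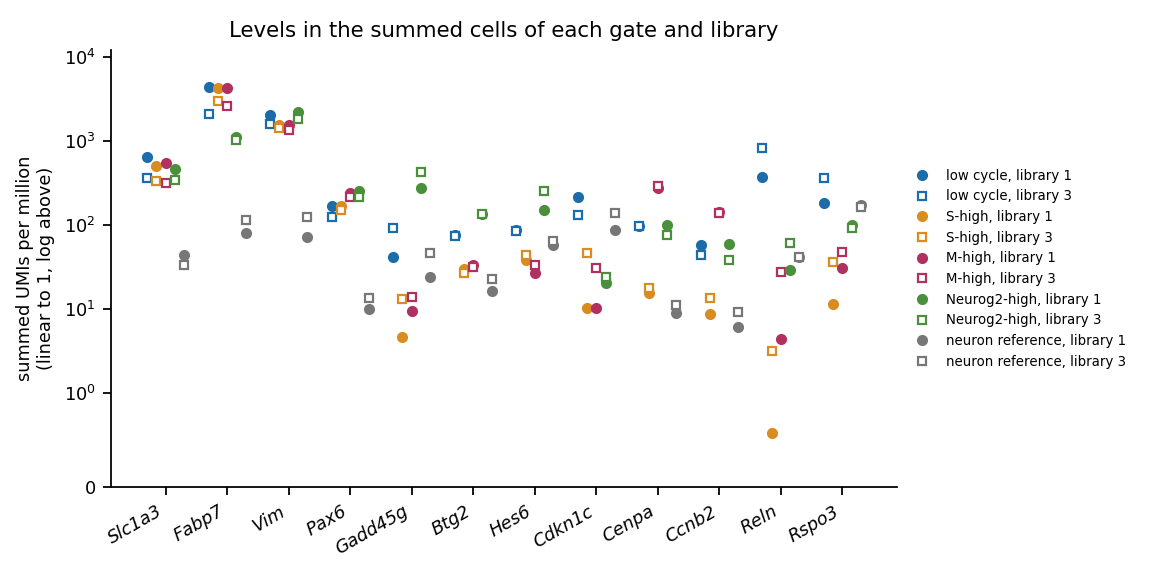
Levels of selected genes in CPM (y axis, linear to 1 and log above) in the 4 groups and the neurons, with 1 point per library. *Gadd45g* sits at 41.4 and 93.3 CPM in low cycle cells, between S-high (4.64 and 13.2) and Neurog2-high cells (276 and 432).

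Against M-high cells, the comparison addressed what sets low cycle cells apart from radial glia with at least 5 UMIs of the mitosis sum. M-high cells had no limit on the replication sum, and its median in them was 7 and 7 UMIs. Their S phase list was near that of S-high cells (above), so the group is not one of G2 and mitosis alone. Of 12164 genes, 649 were higher (5.34%) and 992 lower (8.16%), again in the same direction in both libraries. With the library block, 1633 (13.4%) and 1669 (13.7%) were called, and without the marked cells 232 (2.19%) and 742 (6.99%) of 10609. The repeat without marked cells held 21.9% of the genes called higher and 67.4% of those called lower over all cells. M-high cells were also the deepest group (above). When every cell was thinned to 3000 UMIs, 877 genes were called in all against 1641.

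The genes of cell cycle exit and neurogenesis rose here too. *Gadd45g* was at 41.4 and 93.3 CPM against 9.51 and 13.9 CPM in M-high cells (log2 fold change 2.45 ± 0.42 SE, adjusted p = 0.00696), *Btg2* at 75.3 and 73.6 against 33.4 and 31.9 CPM (log2 fold change 1.11 ± 0.13 SE, adjusted p = 0.000747), and *Hes6* at 86.5 and 85.3 against 27.0 and 33.2 CPM (log2 fold change 1.42 ± 0.22 SE, adjusted p = 0.00408). *Mfng*, a glycosyltransferase that tunes Notch receptors, stood at 21.6 and 15.2 against 3.30 and 3.73 CPM (log2 fold change 2.10 ± 0.33 SE, adjusted p = 0.00430). The low cycle and M-high values of these genes did not overlap, and all 4 passed without the marked cells. Of the proneural and differentiation list, 9 of 15 were higher and 0 lower, against 5.34% and 8.16% of all genes, and 6 of 14 were higher without the marked cells.

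Regulators of G1 were split. *Cdkn1c* (ENSMUSG00000037664, chr7:143458339-143461059), the cyclin-dependent kinase inhibitor p57, stood at 214 and 132 CPM in low cycle cells against 10.5 and 30.9 in M-high cells (log2 fold change 2.88 ± 0.58 SE, adjusted p = 0.0139) and kept a log2 fold change of 2.46 (adjusted p = 0.00136) without the marked cells. Thinned to 3000 UMIs, 14.4% and 12.8% of low cycle and 1.63% and 2.41% of M-high cells held a *Cdkn1c* UMI, with 22.6% and 29.0% of neurons, and in the same order before thinning 21.6% and 25.5%, 6.84% and 9.78% and 57.5% and 64.5%, so the share in low cycle cells did not exceed that in neurons, which transcribe the gene. The inhibitor genes *Cdkn2c*, *Cdkn2d* and *Cdkn1b* were lower. Mitosis genes chose the M-high cells, so a regulator that goes with those genes had to differ. Which of these regulators do so was not tested. *Cdkn2c* (p18) was at 1.88 and 6.07 against 39.4 and 40.2 CPM (log2 fold change -3.00 ± 0.32 SE, adjusted p = 0.000534), and *Cdkn2d* (p19) at 15.1 and 12.1 against 56.7 and 56.3 CPM (log2 fold change -2.11 ± 0.18 SE, adjusted p = 0.000169). *Cdkn1b* (p27) had a log2 fold change of -0.66 (adjusted p = 0.0364) and did not pass without the marked cells (-0.64, adjusted p = 0.0548), and *Cdkn1a* (p21) did not pass (1.61, adjusted p = 0.161). *Rbl1*, the retinoblastoma relative p107, was at 20.7 and 23.5 against 76.1 and 68.0 CPM (log2 fold change -1.72 ± 0.15 SE, adjusted p = 0.000192). Altogether 1 of 22 was higher and 9 were lower. The shares over all genes were 5.34% and 8.16%, and without the marked cells 1 of 20 was higher and 7 lower.

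The 5 largest increases over M-high cells were in *Reln*, *Fbln5*, *Gm29478*, *Car10* and *Ptgds*. *Reln* was at 4.46 and 27.7 CPM in M-high cells (log2 fold change 5.001 ± 0.68 SE, adjusted p = 0.00199). *Fbln5*, an elastic fibre gene, gave a log2 fold change of 4.45, but 1 cell held 94.4% of its UMIs in replicate 1. *Ptgds*, a prostaglandin synthase made by meninges and choroid plexus, stood at 38.6 and 77.7 against 3.30 and 5.001 CPM (log2 fold change 3.57 ± 0.49 SE, adjusted p = 0.00205). *Car10*, a carbonic anhydrase relative of neurons, was at 65.9 and 72.0 against 2.52 and 6.37 CPM (log2 fold change 3.65 ± 0.55 SE, adjusted p = 0.00502), and the predicted gene *Gm29478* at 36.7 and 264 against 5.24 and 14.6 CPM. Without the marked cells the leading genes, ranked after their values were seen, were *Sfta3-ps*, *Erbb4*, *Tmem132c*, *Tshz2* and *Meg3*. *Erbb4* stood at 122 and 49.8 against 5.11 and 2.75 CPM there (log2 fold change 4.18 ± 0.40 SE, adjusted p = 3.03e-05). *Tmem132c*, a membrane protein gene, had a log2 fold change of 2.49 (adjusted p = 0.000315) and *Tshz2*, a zinc finger homeobox gene, of 2.48 (adjusted p = 0.00378). *Meg3*, an imprinted noncoding RNA that is abundant in neurons, was at 254 and 238 CPM in all low cycle cells against 26.6 and 38.8 CPM and passed in both fits (2.80 and 2.41). Its level in neurons was 279.7 and 252 CPM.

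Lower than in M-high cells were the mitosis genes of the list, all 49, by construction of the groups, and the 5 largest decreases outside the lists were in *Depdc1b*, *Esco2*, *Hist1h2ap*, *Hist1h1b* and *Depdc1a*. *Esco2*, which acetylates cohesin, stood at 1.88 and 1.52 against 117 and 124 CPM (-5.81 on the log2 scale), and the mitotic genes *Depdc1a* and *Depdc1b* gave -5.38 and -5.82. *Hist1h1b* and *Hist1h2ap* are replication histones from families of near-identical genes, so their single values (-5.72 and -5.77) are uncertain. Among 16 radial glia identity genes, *Nes* (196 and 142 against 265 and 259 CPM, log2 fold change -0.72 ± 0.15 SE, adjusted p = 0.0154), *Pax6* (-0.71, adjusted p = 0.0202) and *Psat1* (-0.78, adjusted p = 0.0126) were lower, and none of the 3 passed without the marked cells (-0.28, -0.34 and -0.39, adjusted p = 0.226, 0.198 and 0.136). *Nes* encodes the filament nestin, *Pax6* the dorsal transcription factor and *Psat1* an enzyme of serine synthesis. The astroglial list had 4 of 17 genes higher, against 5.34% of all genes, and 1 of 17 without the marked cells, against 2.19%. *Sparc*, a secreted matrix protein gene shared by astroglia and vessels, was at 532 and 448 against 153 and 131 CPM and passed in both fits (1.72 and 1.07, adjusted p = 0.00136 and 0.000507). The lipoprotein gene *Apoe*, the chaperone gene *Clu* and the gap junction gene *Gja1* passed over all cells (1.73, 1.32 and 1.11) and not without the marked ones (0.43, 0.49 and 0.38).

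Stress genes were also higher than in M-high cells. Of the immediate early and dissociation list, 7 of 16 were higher and none lower, against 5.34% and 8.16% of all genes. Without the marked cells 4 of 11 were higher, against 2.19% of all genes. *Fos*, an immediate early transcription factor, stood at 96.9 and 129.7 against 31.4 and 25.6 CPM (log2 fold change 1.93 ± 0.23 SE, adjusted p = 0.000962), and the heat shock gene *Hspa1a* at 67.7 and 73.9 against 17.1 and 21.0 CPM (log2 fold change 1.80 ± 0.16 SE, adjusted p = 0.000192). Their part in the other differences was not tested. The medial list had 5 of 14 genes higher, led by *Rspo2* and *Rspo3* (2.89 and 2.73), against 5.34% of all genes. With the marked cells left out, 0 of 8 were higher, and the median log2 fold change went from 1.11 to 0.00151. Of 7 ventral genes, 4 were higher, against 5.34% of all genes. Among them were *Nkx2-1* at 5.64 and 14.8 against 0 and 0.490 CPM (log2 fold change 3.61 ± 0.87 SE, adjusted p = 0.0354) and *Six3* at 10.3 and 31.1 against 1.75 and 2.26 CPM (log2 fold change 3.02 ± 0.52 SE, adjusted p = 0.00978). Over the unmarked cells 2 of 4 ventral genes tested were higher, against 2.19% of all genes. *Nkx2-1*, which patterns the ventral telencephalon, came from 2 of 97 and 8 of 251 cells. At its level in M-high cells it could pass the count filter only through other groups, so the ventral counts are a description.

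**Figure D4:**
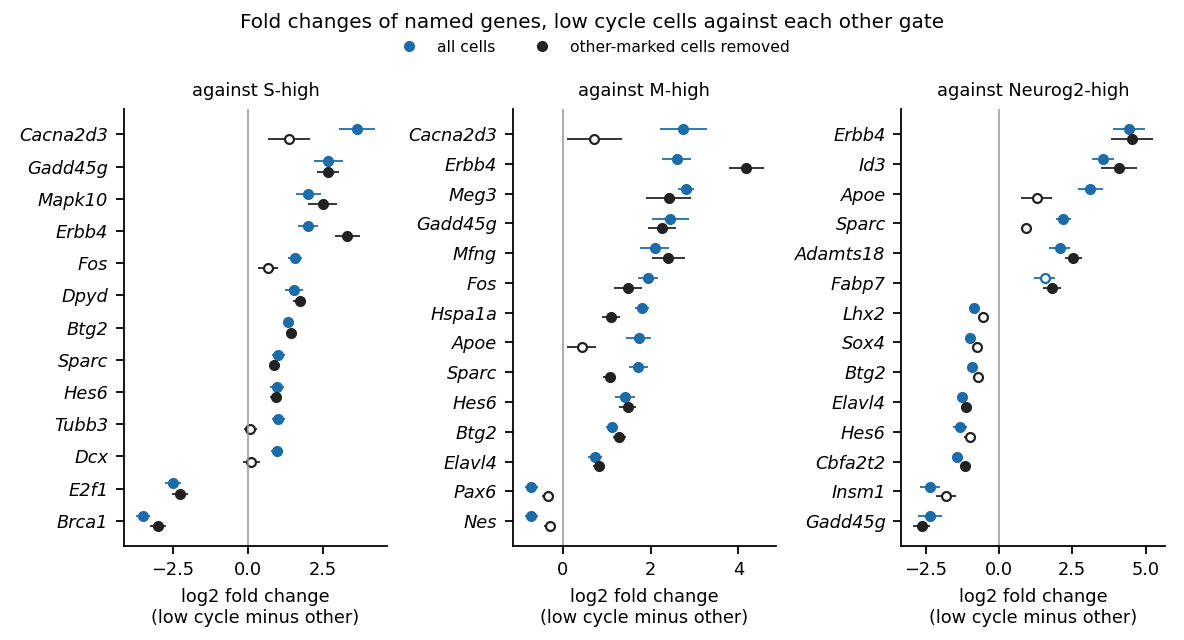
Log2 fold changes of low cycle against the other groups (x axis) for selected genes, with bars of 1 SE, over all cells and without the cells that carried markers of other classes. Open points did not pass an adjusted p of 0.05. *Gadd45g* lies at 2.68 against S-high and -2.36 against Neurog2-high cells.

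Neurog2-high cells shared the low cycle sums and differed by at least 2 UMIs of the proneural factor *Neurog2*, so this comparison was the closest in depth and cycle. Fewer genes passed the adjusted threshold. Of 12164 genes, 90 were higher (0.74%) and 62 lower (0.51%), and with the library block 621 (5.11%) and 387 (3.18%). Without the marked cells only 7 (0.066%) and 11 (0.104%) of 10609 passed. At an unadjusted p under 0.05 in the edgeR test over all cells, 2305 genes passed here, 2363 against S-high and 3466 against M-high cells. In simulated counts the fit recovered 22% of changes of log2 1 here, against 40% and 48% in those comparisons. The lower count can therefore not be read as greater similarity. Erythroid transcripts moved with this comparison, summing to 134 and 507 CPM in low cycle and 13920.3 and 592 CPM in Neurog2-high cells, and their part in it was not tested. The Neurog2-high group was small, with 43 and 71 cells and 1184461 UMIs in all. Several genes that were lower in low cycle cells are known to be switched on with *Neurog2*, which chose the groups. *Gadd45g* stood at 41.4 and 93.3 CPM in low cycle and 276 and 432 CPM in Neurog2-high cells (log2 fold change -2.36 ± 0.41 SE, adjusted p = 0.0388), and this also passed without the marked cells (-2.63, adjusted p = 0.00607). *Insm1*, a zinc finger gene of basal progenitors, was at 16.9 and 10.6 against 79.7 and 56.4 CPM (log2 fold change -2.34 ± 0.33 SE, adjusted p = 0.0229). *Btg2* was at 75.3 and 73.6 against 137 and 137 CPM (log2 fold change -0.92 ± 0.14 SE, adjusted p = 0.0258), and *Hes6* at 86.5 and 85.3 against 153 and 256 CPM (log2 fold change -1.32 ± 0.23 SE, adjusted p = 0.0396). *Gadd45g*, *Btg2* and *Hes6* thus lay between S-high and Neurog2-high cells in both libraries. Of these, *Btg2* (-0.70, adjusted p = 0.158) and *Hes6* did not pass against Neurog2-high cells without the marked cells. The neuronal RNA-binding protein gene *Elavl4* was lower in both fits (-1.25 and -1.11, adjusted p = 0.0193 and 0.0219). Of the proneural list, 6 of 15 were lower and 0 higher, against 0.51% and 0.74% of all genes. Without the marked cells 2 of 14 were lower, *Gadd45g* and *Elavl4*.

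The other largest decreases were in *Tmem178* (46.1 and 36.0 against 169 and 115 CPM, -1.82), a membrane protein gene, in the antisense transcript *Zfhx2os* (9.41 and 14.4 against 43.3 and 40.3 CPM, -1.74), whose reads may be mixed with its partner if strand was not used, and in *Serinc5* (18.8 and 18.6 against 61.5 and 57.7 CPM, -1.68), a membrane protein gene. *Cbfa2t2*, a corepressor gene, was at 92.2 and 102 against 237 and 271 CPM, *Chn2*, which encodes a Rac regulator, at 45.2 and 84.9 against 223 and 168, and *Prag1*, a pseudokinase gene, at 68.7 and 81.5 against 223 and 161, and these 3 with *Serinc5* passed in both fits. The largest increases were in *Vtn*, *Igf2*, *Colec12*, *Enpp2* and *Ptprn2*, none of which had a UMI in Neurog2-high cells. Against a floor of 3 counts over that group (2.53 CPM), the pooled low cycle level was at least 27.4-fold higher for *Vtn*, vitronectin of pericytes, and at least 24.0-fold for *Igf2*, a growth factor of meninges and choroid plexus. The bounds were 22.3-fold for *Colec12*, a scavenger receptor, 20.2-fold for *Enpp2*, autotaxin, and 19.7-fold for *Ptprn2*, a vesicle phosphatase. In replicate 1 a single cell held 27.7% of the *Vtn* UMIs. With no UMI in Neurog2-high cells, the genes of these increases passed the count filter through other groups. They could only come out higher here. *Vtn* is on the pericyte list, which marked 0% of Neurog2-high cells, and none of that list was tested without the marked cells.

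The astroglial list had 2 of 17 genes higher, against 0.74% of all genes, and 0 of 17 without the marked cells. *Id3*, a BMP target that blocks proneural factors, stood at 157 and 175 CPM in low cycle against 2.28 and 20.1 CPM in Neurog2-high cells (log2 fold change 3.55 ± 0.38 SE, adjusted p = 0.0109) and passed without the marked cells (4.08, adjusted p = 0.0359). *Erbb4* was at 140.2 and 288 against 11.4 and 8.05 CPM (log2 fold change 4.42 ± 0.55 SE, adjusted p = 0.0169). *Adamts18*, a secreted protease gene, was at 159.9 and 99.0 against 29.6 and 28.2 CPM (log2 fold change 2.07 ± 0.34 SE, adjusted p = 0.0360). *Fabp7* did not pass over all cells, with 4418 and 2116 against 1125 and 1025 CPM (log2 fold change 1.55 ± 0.35 SE, adjusted p = 0.0716), and did without the marked ones (5519 and 2504 against 1160.4 and 1079 CPM, log2 fold change 1.82 ± 0.30 SE, adjusted p = 0.0480). *Dpyd*, an enzyme of pyrimidine breakdown, behaved in the same way (1.49 and 1.86, adjusted p = 0.0906 and 0.0425). The genes *Id3*, *Adamts18*, *Dpyd*, *Cbfa2t2*, *Chn2* and *Prag1* were chosen after their values were seen, from the fit without the marked cells. The summed 16 radial glia identity genes reached 13724 and 7909.7 CPM in low cycle and 8972 and 6699 CPM in Neurog2-high cells, but 0 of 16 passed. With the library block 5 were higher and 1 lower, and without the marked cells 1 was higher and 0 lower.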

How the data were processed

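Single-cell RNA libraries of 2 wild-type samples were analysed. The authors counted UMIs per gene and barcode with Cell Ranger 7.0.0 on mm10, per the labels' processing notes, and deposited 1 count matrix per sample without normalization. Annotation, intron setting and strand are not given in the sources used here. The lowest deposited barcodes held 502 and 500 UMIs. Barcodes of 1500 to 60000 UMIs with under 10% mitochondrial UMIs were kept here, a filter the study states for another data set.

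Group limits on raw UMIs were applied as given in the report. The members, gene lists and tests were chosen with earlier results of these data known. UMIs were summed per group and library (8 sums) and tested in 1 fit with edgeR 4.0.16 (R 4.3.3) by its quasi-likelihood test, with TMM scaling, filterByExpr and Benjamini-Hochberg adjustment over all genes tested, at 0.05. Fold changes are log2 with a prior count of 2, and each SE is the size of its change divided by √F. The 20 genes of the rule were left out of all counts. The genes named were, in each comparison, the 5 highest and 5 lowest past the threshold with the same direction in both libraries and at least 20 CPM, outside the rule and cycle lists, and the largest changes within each list. CPM values carry no TMM factors. Some genes of the fixed lists are not reported here by name.

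The main design had no block. The library was entered as a block in an alternative. The deviations from the group means correlated across genes at 0.487 (low cycle and S-high), 0.452 (low cycle and M-high) and 0.0777 (low cycle and Neurog2-high), and the pairing comes from the shared library. Each named call passed with the block too. Marked cells held 3 or more UMIs of any 1 of the hem, choroid plexus, Cajal-Retzius, meningeal fibroblast, pericyte, endothelial, oligodendrocyte lineage or microglia lists. Doublets were scored as in Scrublet and kept, with 0 and 5 predicted among low cycle cells, and were removed in an alternative. Thinning drew 3000 UMIs per cell without replacement. Intervals are 95% Wilson intervals and, like floors of 3 counts, cover counting error only. DESeq2 1.42.0, Python 3.11.15, scanpy 1.11.5, numpy 2.4.6 and pandas 2.3.3 were also used. The fit was tested on simulated counts. Against S-high, M-high and Neurog2-high cells it recovered 2%, 0% and 0% of changes of log2 0.5. Of changes of log2 1 it recovered 40%, 48% and 22%, and of log2 2 66%, 68% and 50%. Gene positions and promoters are from RefSeq on GRCm38.p6, and Aldoa, whose symbol names 2 gene identifiers, was left out of its list.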

Additional observations from a re-analysis of the deposited data

How the results depend on the processing

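With the replicate block, that is with the sums of 1 library paired, the counts of genes differing rose from 598, 1641 and 152 to 1689 against S-high, 3302 against M-high and 1008 against Neurog2-high cells, and no named call was lost. Without a filter on low counts they were 1595, 2915 and 1341. With a radial glia sum of at least 8 they were 328, 993 and 2. Against S-high cells, scaled thresholds gave 1019, cycle sums of at most 1 gave 953 and cells of 6000 to 20000 UMIs gave 1017. Thinned cells gave 877 against M-high and 79 against Neurog2-high cells. Against Neurog2-high cells, DESeq2 called 412, cycle sums of at most 1 gave 372, and removal of the 5 vascular, meningeal, microglial and choroid lists alone gave 34. Without all marked cells, chosen after the data were seen, counts were 974 against M-high and 18 against Neurog2-high cells, and with the replicate block added 953 against S-high and 289 against Neurog2-high cells. The share of low cycle cells was 0.936% with cycle sums of at most 1 and 1.08% with a radial glia sum of at least 8, and from 1.78% to 3.35% in single libraries. *Id3* against S-high cells turned from 1.10 to -0.0769 without the marked cells and -0.0501 with the block added. The causes of these shifts were not tested. Of 141 values of named genes, 139 kept their direction and side of the threshold without predicted doublets, 131 in DESeq2 and 92 when thinned. Without the marked cells 63 did and 44 no longer passed. With a radial glia sum of at least 8, 72 did and 58 no longer passed. Genes that fell below the count filter of a setting, such as *Reln* without the marked cells, are in neither count. The 2 libraries and the small Neurog2-high group limit what could be called, and with 1 library left out only folds could be given.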

Other observations

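Signalling and architecture genes of radial glia outside the comparisons above were called in small numbers, in many lists at shares near those over all genes (1.79% higher and 3.12% lower than in S-high, 5.34% and 8.16% than in M-high, 0.74% and 0.51% than in Neurog2-high cells). *Stat3*, the transcription factor of LIF receptor signalling, was at 47.0 and 83.4 CPM in low cycle cells against 33.1 and 26.4 in S-high cells (log2 fold change 1.14 ± 0.25 SE, adjusted p = 0.0394) and 18.4 and 18.8 in M-high cells (log2 fold change 1.76 ± 0.24 SE, adjusted p = 0.00219), and it passed in both comparisons without the marked cells (1.12 and 1.76, adjusted p = 0.0412 and 0.000796). *Stat3* and *Amotl2*, a Hippo gene higher than in M-high cells (0.79), were the only calls among the 12 Hippo and LIF receptor genes tested. Of the 15 Wnt receptors, mediators and targets tested, 1 was lower than in M-high cells, the transcription factor gene *Tcf7l1*, which is no more than the share over all genes. The ligand gene *Wnt7b* was higher in all 3 comparisons (1.69, 2.03 and 2.12), and without the marked cells it passed against M-high cells alone (adjusted p = 0.235, 0.00965 and 0.431). Of 8 Hedgehog genes, 3 were lower than in M-high cells, with the transcription factor gene *Gli3* at -0.63 (adjusted p = 0.0343, and 0.292 without the marked cells), and 1 was lower than in Neurog2-high cells, the coreceptor gene *Cdon* (-0.70, adjusted p = 0.0423). With the marked cells left out, 0 of 8 were lower in either comparison, and *Cdon* stood at -0.27 (adjusted p = 0.494).

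Among 18 primary cilium genes, the centrosome gene *Pcnt* was lower than in S-high (-1.27) and M-high cells (-1.94), as it was without the marked cells (-1.15 and -1.82, adjusted p = 0.00893 and 5.61e-05). Of 22 genes of serine, lipid and glycolysis metabolism, 2 were lower than in S-high and 2 lower than in M-high cells, with the folate enzyme gene *Shmt1* among them each time (-2.12 and -1.98), and without the marked cells 2 were lower than in S-high, and 1 lower and 1 higher than in M-high cells. Against M-high cells these shares are near that over all genes. Of 13 FGF and EGF receptor and feedback genes, 1 was higher and 1 lower than in M-high cells, the latter the FGF target *Etv5* (-1.63), also near the shares over all genes, and without the marked cells 0 and 1 of 11. None of 77 cytosolic ribosomal protein genes passed in edgeR without a block, with 3, 1 and 1 at an unadjusted p under 0.05 against S-high, M-high and Neurog2-high cells and 1, 0 and 0 called by DESeq2. With the library block, 18 were lower against S-high, 10 higher and 1 lower against M-high and 12 lower against Neurog2-high cells. The shares over all genes with the block were 7.28%, 13.4%, 13.7% and 3.18% in this order. The block fit without the marked cells gave 3 lower than in S-high, 55 higher than in M-high and 0 lower than in Neurog2-high cells. Over all 10609 genes of that fit, 641 were lower, 773 higher and 125 lower in the same order. The median log2 fold change of the 77 genes against M-high cells was 0.237 there, against 0.0167 over all genes. None of 13 mitochondrially encoded genes passed in edgeR without a block or in DESeq2 (0 at an unadjusted p under 0.05), and 7 were higher than in M-high cells with the block, 6 when fitted without the marked cells. The values over all genes given above for these fits apply here too. None of 3 Notch ligands passed, with 1 at an unadjusted p under 0.05 in each comparison and 1, 0 and 1 called by DESeq2. With the block, 1 ligand was higher against S-high, 1 higher against M-high and 1 lower against Neurog2-high cells, where the shares over all genes were 6.61%, 13.4% and 3.18%. The genes named here were chosen after their values were seen.

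Of 7 lateral genes, *Nr2f2*, which encodes a nuclear receptor, stood at 149 and 128 CPM in low cycle cells against 42.3 and 24.6 in S-high, 37.1 and 31.1 in M-high and 36.4 and 18.8 in Neurog2-high cells. Its log2 fold changes of 2.03, 1.93 and 2.34 passed in all 3 comparisons over all cells and in none without the marked cells (0.93, 1.11 and 1.71, adjusted p = 0.449, 0.212 and 0.475). *Dpyd* stood at 95.96 and 85.3 CPM in low cycle cells against 25.5 and 31.8 in S-high and 27.2 and 20.7 in M-high cells and passed in both fits in these 2 comparisons (log2 fold changes 1.55 and 1.83 over all cells, 1.73 and 1.98 without the marked ones).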
